A study of Mus musculus with 20 samples.

Results

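The tumour necrosis factor (TNF) superfamily and its receptors were examined as targets of 2 transcription factors in mouse CD4+ T cells. Members were taken by symbol. They are the protein-coding genes whose names begin with Tnfrsf or Tnfsf, together with Tnf, Lta, Ltb, Ltbr, Cd27, Cd40, Cd40lg, Fas, Fasl and Cd70. The annotation holds 42 such genes, 24 receptors and 18 ligands, among 21900 protein-coding genes. Of the 22081 distinct regions in the series, 102 had one of these genes as the nearest to their centre, at a distance of 0 inside the gene and at most 100 kb outside it. The regions fell at 33 of the 42 members.

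The study mapped Bcl11b and Foxp3 by chromatin immunoprecipitation and sequencing (ChIP-seq) in 20 libraries of 9 groups, 12 immunoprecipitated and 8 of input DNA. All cells were CD4+ cells of C57BL/6 mice, sorted from spleen and lymph nodes. Wild-type (WT) Treg cells carried Foxp3-IRES-YFP-Cre and were sorted as CD4+YFP+, with 3 Bcl11b and 2 Foxp3 libraries. The 3 Bcl11b libraries labelled Tn have the same genotype and the same sort label, and the labels do not spell out the abbreviation. The Bcl11b-KO Treg cells carried Bcl11b f/f beside the same Cre, were sorted as CD4+YFP+ and gave 2 Foxp3 libraries. In these mice Cre is expressed from the Foxp3 gene, and the WT and Tn groups carry it too. KIKO cells, described as Treg cells without Foxp3, had the genotype Foxp3-GFPKO, were sorted as CD4+GFP+ and gave 2 Bcl11b libraries. The lists hold positions and no expression, so the labelled cell types were not checked against marker genes.

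Receptors of this superfamily are activated by trimeric ligands, most of which sit on the surface of other cells. Receptors without a death domain recruit TRAF adaptors and drive NF-kB signalling, whereas death receptors such as Fas recruit FADD and caspases. Treg cells are known for high levels of the costimulatory receptors OX40 (Tnfrsf4), GITR (Tnfrsf18) and TNF receptor type II (Tnfrsf1b), and NF-kB signals from these receptors support Treg development and survival. Bcl11b is a zinc-finger regulator required for T cell commitment, and Treg cells depend on Foxp3 for their identity.

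A region overlapped a promoter window of 11 members. The windows run from 250 bases before to 50 bases after a RefSeq start, and 32 of the 42 members had at least 1. None of these overlaps involved a Bcl11b region from the Tn or KIKO comparison, in which members held only 21 and 17 regions. The corresponding shares over all promoters are not given here, so these counts have no background beside them. Promoter regions of 7 members were listed in 2 comparisons, those of Fasl, Ltb, Tnfrsf12a, Tnfrsf1a, Tnfrsf4, Tnfrsf8 and Tnfsf8. The upstream 250 bases are shown for 5 of these, the first in order of symbol with upstream bases inside the region, to show where the region met the promoter. They come from RefSeq on GRCm38.p6, the assembly with mm10 coordinates, and read 5′ to 3′ towards the start site. Capitals mark bases inside the deposited region. They lie at chr1:161788496-161788745 (minus strand) for Fasl, chr17:35194257-35194506 (plus strand) for Ltb, chr17:23677450-23677699 (minus strand) for Tnfrsf12a, chr6:125349473-125349722 (plus strand) for Tnfrsf1a and chr4:145315165-145315414 (minus strand) for Tnfrsf8.
Fasl: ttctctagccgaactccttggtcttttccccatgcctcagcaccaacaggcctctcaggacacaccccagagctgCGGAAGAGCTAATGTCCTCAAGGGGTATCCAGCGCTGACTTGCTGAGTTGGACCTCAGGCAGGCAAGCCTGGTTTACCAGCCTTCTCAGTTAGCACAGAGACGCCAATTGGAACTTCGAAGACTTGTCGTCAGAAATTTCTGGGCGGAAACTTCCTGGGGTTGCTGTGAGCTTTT
Ltb: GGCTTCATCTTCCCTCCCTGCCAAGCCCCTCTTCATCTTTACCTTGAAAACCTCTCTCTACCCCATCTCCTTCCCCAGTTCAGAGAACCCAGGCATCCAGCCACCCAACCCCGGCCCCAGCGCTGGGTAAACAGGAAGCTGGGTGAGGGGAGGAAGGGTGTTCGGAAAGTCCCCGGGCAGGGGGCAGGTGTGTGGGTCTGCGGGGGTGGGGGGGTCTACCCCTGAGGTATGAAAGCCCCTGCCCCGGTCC
Tnfrsf12a: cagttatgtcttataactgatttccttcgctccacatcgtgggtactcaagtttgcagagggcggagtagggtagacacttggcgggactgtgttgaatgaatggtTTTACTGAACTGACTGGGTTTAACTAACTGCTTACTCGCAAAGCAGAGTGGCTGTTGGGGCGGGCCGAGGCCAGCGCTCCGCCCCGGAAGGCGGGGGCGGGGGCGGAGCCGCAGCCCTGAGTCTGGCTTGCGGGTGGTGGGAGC
Tnfrsf1a: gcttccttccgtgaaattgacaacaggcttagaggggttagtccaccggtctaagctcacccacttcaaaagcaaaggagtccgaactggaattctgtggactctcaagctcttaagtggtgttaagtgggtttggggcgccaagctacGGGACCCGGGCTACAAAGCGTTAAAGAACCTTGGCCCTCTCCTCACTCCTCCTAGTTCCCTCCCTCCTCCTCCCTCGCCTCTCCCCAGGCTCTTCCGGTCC
Tnfrsf8: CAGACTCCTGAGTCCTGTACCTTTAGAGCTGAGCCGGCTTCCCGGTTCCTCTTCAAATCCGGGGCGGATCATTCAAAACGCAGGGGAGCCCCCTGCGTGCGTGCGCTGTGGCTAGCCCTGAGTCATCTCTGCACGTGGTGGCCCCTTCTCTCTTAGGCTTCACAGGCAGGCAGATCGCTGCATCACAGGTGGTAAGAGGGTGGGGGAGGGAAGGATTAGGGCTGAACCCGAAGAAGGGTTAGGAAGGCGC

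The region took in all 250 upstream bases at Ltb and Tnfrsf8, 175 at Fasl, 144 at Tnfrsf12a and 101 at Tnfrsf1a. Only that of Fasl was listed for both factors. The others were listed for Foxp3 and not for Bcl11b. At Tnfrsf4 the region, which was shared by both factors, began 17 bases past the start site, so none of its upstream bases are shown. Both strands of these bases were searched for 5 motifs, and no 2 matches overlapped. Ltb held a match to the forkhead motif TGTTTAC, 124 to 118 bases before the start, and a match to the NF-kB motif, 87 to 78 bases before it, that reads GGAAAGTCCC on the printed strand. Tnfrsf12a and Tnfrsf1a each held the ETS motif CCGGAAG, 61 to 55 and 10 to 4 bases before the start. Tnfrsf8 held the AP-1 motif TGANTCA, 132 to 126 bases before it. The RUNX motif TGTGGT was in none of the 5 sequences. Fasl held no match to any of the 5. Over 32851 annotated promoters of the same length, these motifs occurred in 3.17% (forkhead), 1.41% (NF-kB), 6.91% (ETS), 6.75% (AP-1) and 14.0% (RUNX). A match describes the letters and no binding of a factor was measured at it.

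The deposited data are 12 lists of regions, 3 for each of 4 pairwise comparisons. Within a comparison, each list names regions found in the first set alone, in both sets or in the second set alone. No list carries a score or a value per library. The depth is therefore unknown, replicate differences were not analysed here, and no test over samples could be made. The label of the third WT Treg Bcl11b library names none of the lists. Shares have Wilson 95% intervals, which cover counting error only, and neighbouring regions of a gene may depend on one another. Differences between the members and all regions were not tested. In the KIKO and Bcl11b-KO comparisons, lost means listed for WT Treg cells alone.

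Most members had a region. The 33 of 42 are 78.6% (64.1 to 88.3), beside 50.3% of all protein-coding genes. The median was 1.5 regions per member and 1 per protein-coding gene, and the highest count was 8, at Tnfrsf1b and at Tnfsf8. Of the 102 regions, 94 were listed in a Foxp3 set (92.2%, 85.3 to 96.0), 32 in a Bcl11b set (31.4%, 23.2 to 40.9) and 24 in both, so 70 regions at 26 genes were seen with Foxp3 alone. Foxp3 also made up most of the whole series, with 82.6% of all regions in a Foxp3 set and 42.2% in a Bcl11b set. The member regions in both were 23.5% (16.4 to 32.6), beside 24.8% of all regions. Those with Foxp3 alone were 68.6% (59.1 to 76.8), beside 57.8%. Chromosome 4 held 36 of the 102, at 7 of the 33 members with a region. These were Tnfsf8, Tnfrsf1b, Tnfrsf8, Tnfrsf9, Tnfrsf14, Tnfrsf4 and Tnfrsf18. The share of all regions on that chromosome is not given here, so this count has no background beside it.

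**Figure D1:**
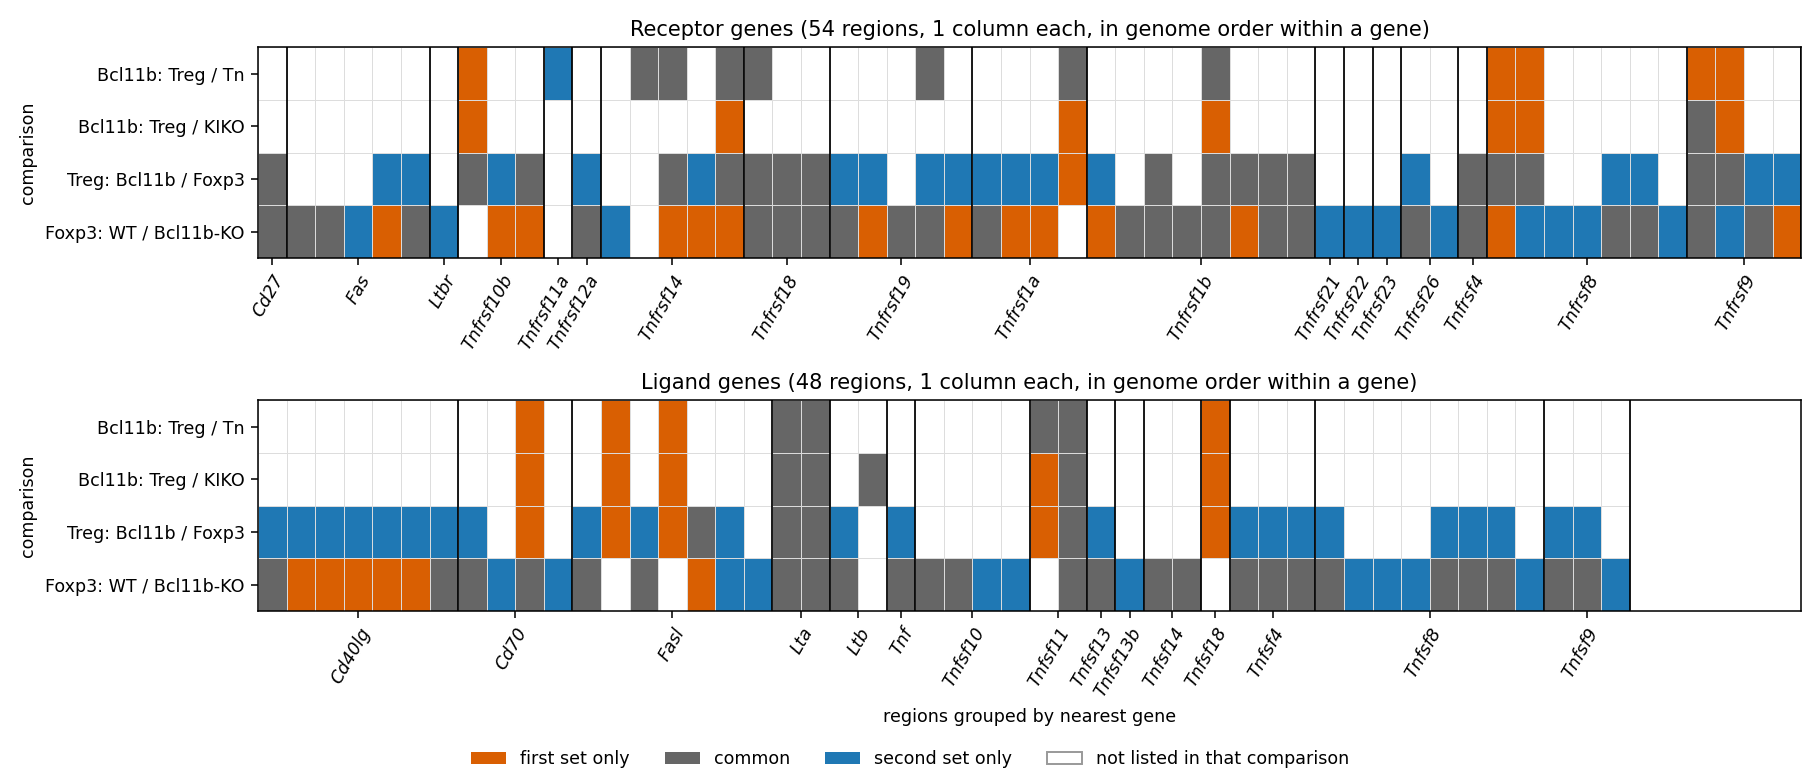
Class of each of the 102 regions (columns, grouped by nearest gene; 54 at receptors above, 48 at ligands below) in the 4 comparisons (rows). Orange is the first set only, grey is common, blue is the second set only and white is not listed; Bcl11b rows are mostly white, and the blue tiles of the bottom row gather at Tnfrsf8 and Tnfsf8.

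In the comparison of Bcl11b between Treg and Tn cells, which asks where Bcl11b binding is particular to Treg cells, members held 21 regions. Of these, 9 (42.9%, 24.5 to 63.5) were Treg-specific, 11 (52.4%, 32.4 to 71.7) were common and 1 (4.76%, 0.846 to 22.7) was Tn-specific. The corresponding shares over all regions were 28.0%, 62.0% and 10%, and each lies within the members' interval. The Treg-specific regions were at Tnfrsf8, Tnfrsf9 and Fasl, with 2 each, and at Tnfrsf10b, Cd70 and Tnfsf18, with 1 each. The Tn-specific region was in Tnfrsf11a, the gene of RANK, at chr1:105787186-105787411, and no other set had a region at that gene.

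In the comparison with KIKO cells, which asks which Bcl11b sites persist without Foxp3, 12 of 17 member regions (70.6%, 46.9 to 86.7) were lost and 5 (29.4%, 13.3 to 53.1) were common. Over all regions 61.6% were lost, 37.2% were common and 1.17% were KIKO-specific. No member region was KIKO-specific, and 0 of 17 allows a share of up to 18.4%. The 5 common regions lay at Lta (2), Ltb, Tnfrsf9 and Tnfsf11. Of the 9 regions that were Treg-specific against Tn, 8 were lost (88.9%, 56.5 to 98.0), and of the 7 that were common with Tn and listed here, 4 were lost (57.1%, 25.0 to 84.2). Both comparisons use the WT Treg Bcl11b set, so these values are given side by side without a test. Over all regions the corresponding shares were 86.7% and 52.8%.

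In WT Treg cells 22 of 69 member regions (31.9%, 22.1 to 43.6) were shared by the 2 factors, 41 (59.4%, 47.6 to 70.2) were listed for Foxp3 only and 6 (8.70%, 4.05 to 17.7) for Bcl11b only. All regions gave 28.3%, 56.8% and 14.9%. Among the 26 member regions of this comparison wider than 276 bp, 14 were shared (53.8%), 11 were Foxp3-only (42.3%) and 1 was Bcl11b-only (3.85%), beside 46.0%, 52.4% and 1.64% of all regions of such width. Shared regions fell mostly at receptors, 18 of 37 regions there (48.6%, 33.4 to 64.1), with 4 of 32 at ligands (12.5%, 4.97 to 28.1). Bcl11b-only regions ran the other way, with 1 at a receptor gene, Tnfrsf1a, and 5 at the ligand genes Fasl (2), Cd70, Tnfsf11 and Tnfsf18. The difference between receptors and ligands was noticed in these lists and was not tested.

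In the comparison of Foxp3 between WT and Bcl11b-KO Treg cells, which asks how Foxp3 sites change without Bcl11b, members held 93 regions. Of these, 20 (21.5%, 14.4 to 30.9) were lost, 49 (52.7%, 42.6 to 62.5) were common and 24 (25.8%, 18.0 to 35.5) were KO-specific. Over all regions 27.2% were lost, 59.7% were common and 13.1% were KO-specific. Among the 26 member regions wider than 276 bp, 2 (7.69%) were KO-specific, 18 (69.2%) were common and 6 were lost. Over all regions of such width 5.20% were KO-specific and 77.1% were common. The most frequent width of the Bcl11b-KO set is 276 bp, and 85.9% of all KO-specific regions have exactly this width. The cut therefore removes most of that class in advance and cannot test its share. KO-specific regions were at 15 members, and 8 of the 24 were at Tnfrsf8 and Tnfsf8, the genes of CD30 and its ligand. Lost regions were at 10 members, led by Cd40lg with 5 and Tnfrsf14 with 3. Lost regions made up 14 of 50 at receptors (28.0%, 17.5 to 41.7) and 6 of 43 at ligands (14.0%, 6.56 to 27.3), 5 of those 6 at Cd40lg. KO-specific shares were 24.0% (14.3 to 37.4) and 27.9% (16.7 to 42.7).

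**Figure D2:**
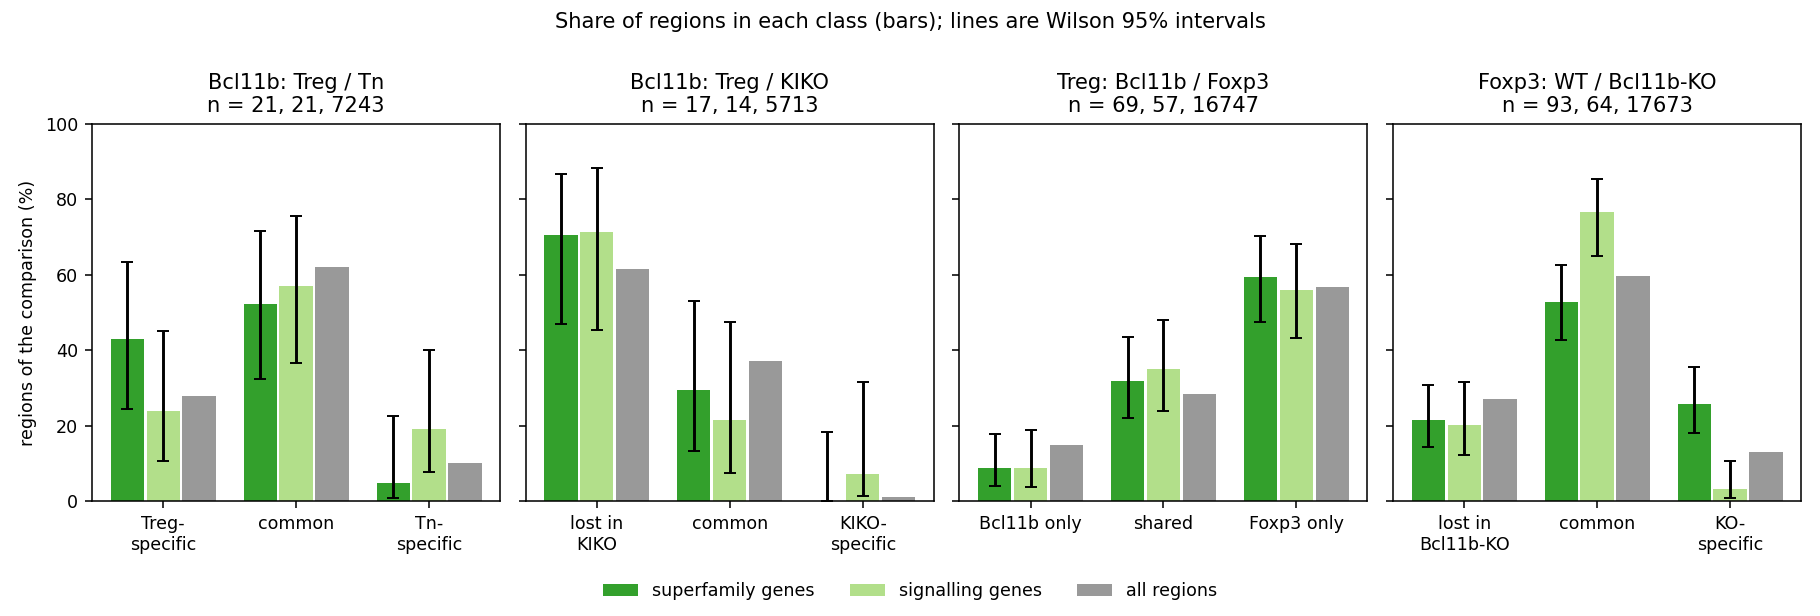
Percent of the regions in each class (y axis) in the 4 comparisons for the superfamily genes (dark green), for genes of TNF receptor signalling (light green) and for all regions (grey), with the 3 numbers of regions above each panel. Lines are Wilson 95% intervals. The KO-specific share was 25.8% at the superfamily genes, 3.12% at the signalling genes and 13.1% over all regions. Among regions wider than 276 bp it was 7.69%, 3.57% and 5.20%. That cut drops most KO-specific regions by construction, since 85.9% of all of them are exactly 276 bp wide.

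Among the costimulatory receptors, Tnfrsf9 and Tnfrsf8 held the Treg-specific Bcl11b sites. Tnfrsf9 encodes CD137, a receptor induced on activated T cells. Its region at chr4:150915086-150915597, 4.81 kb upstream of the gene, was Treg-specific against Tn, common with KIKO, shared with Foxp3 and common in the Foxp3 comparison. That was the single Treg-specific region at a member that KIKO cells kept. A second region at chr4:150924231-150924727, 4.32 kb inside the gene, was Treg-specific, lost in KIKO and shared with Foxp3. It was listed as KO-specific for Foxp3 although the factor comparison lists it for WT Foxp3, so the lists conflict there. The other 2 regions of Tnfrsf9, 18.0 and 20 kb into the gene, were Foxp3-only, the first common and the second lost in Bcl11b-KO cells.

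Tnfrsf8 encodes CD30, a receptor of activated lymphocytes. Regions at chr4:145266635-145266897, 0.366 kb past the 3′ end of the gene, and at chr4:145300258-145300544, 14.8 kb inside it, were both Treg-specific, lost in KIKO and shared with Foxp3. For Foxp3 the first was lost in Bcl11b-KO cells, and the second was listed as KO-specific with the same conflict as at Tnfrsf9. A further 3 regions were found in the Bcl11b-KO set alone, 4.20 and 2.55 kb inside the gene and 8.31 kb upstream. The promoter region and a region 4.18 kb upstream were Foxp3-only and common to WT and Bcl11b-KO cells. Of the 5 member regions that were both Treg-specific and shared with Foxp3, 4 lay at Tnfrsf8 and Tnfrsf9, and the remaining one was in Tnfrsf10b.

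Tnfrsf1b, the gene of TNF receptor type II, had 8 regions, 6 of them common for Foxp3 and 2 lost. Both factors shared 5 of the 8, at 7.74 and 3.30 kb upstream and at 6.00, 10.6 and 17.6 kb inside the gene. Of these 5, 4 were listed for Bcl11b in the factor comparison alone. The fifth, the region at chr4:145236098-145236397, was also common with Tn and lost in KIKO. The remaining 3 were not listed for Bcl11b. They lay 17.0 kb inside the gene (common) and 1.10 kb (common) and 1.60 kb (lost) past its 3′ end. Tnfrsf1b and Tnfrsf8 are 20.26 kb apart, and the pair took 15 of the 102 regions, spread over 113 kb from the first to the last.

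At the adjacent genes Tnfrsf4 and Tnfrsf18 every region was shared by Bcl11b and Foxp3 and was common for Foxp3 with and without Bcl11b. The single region of Tnfrsf4 lay at chr4:156013712-156013931, just past the start site. The regions of Tnfrsf18, the GITR gene, were 4.79 and 3.96 kb upstream and 1.94 kb past the 3′ end. The 2 upstream regions lie between the genes, 4.92 and 5.75 kb from Tnfrsf4, so their assignment rests on small differences in distance. Of the 4 regions of this pair, only chr4:156021358-156021702 was also listed in the Tn comparison, as common, and none was listed in the KIKO comparison. The region 4.58 kb upstream of Cd27, a costimulatory receptor gene of naive T cells, was likewise shared and common, and was absent from the Tn and KIKO lists.

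Tnfrsf14 encodes HVEM, which binds LIGHT and the inhibitory receptor BTLA. It held 5 regions, all upstream of the gene. Foxp3 was lost from 3 of them in Bcl11b-KO cells, at 8.07, 14.2 and 15.8 kb, and the first and last of these were shared with Bcl11b. Bcl11b was listed as common with Tn at 7.26, 8.07 and 15.8 kb, and at 15.8 kb it was lost in KIKO. The region at 7.26 kb is 226 bp wide, the most frequent width of the Tn set. It was absent from the KIKO and factor comparisons, which also use WT Treg Bcl11b. The region 399.5 bp upstream was KO-specific. No Tnfrsf14 region was common to WT and Bcl11b-KO Foxp3. Tnfrsf25, the gene of the receptor for TL1A, had no region.

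**Figure D3:**
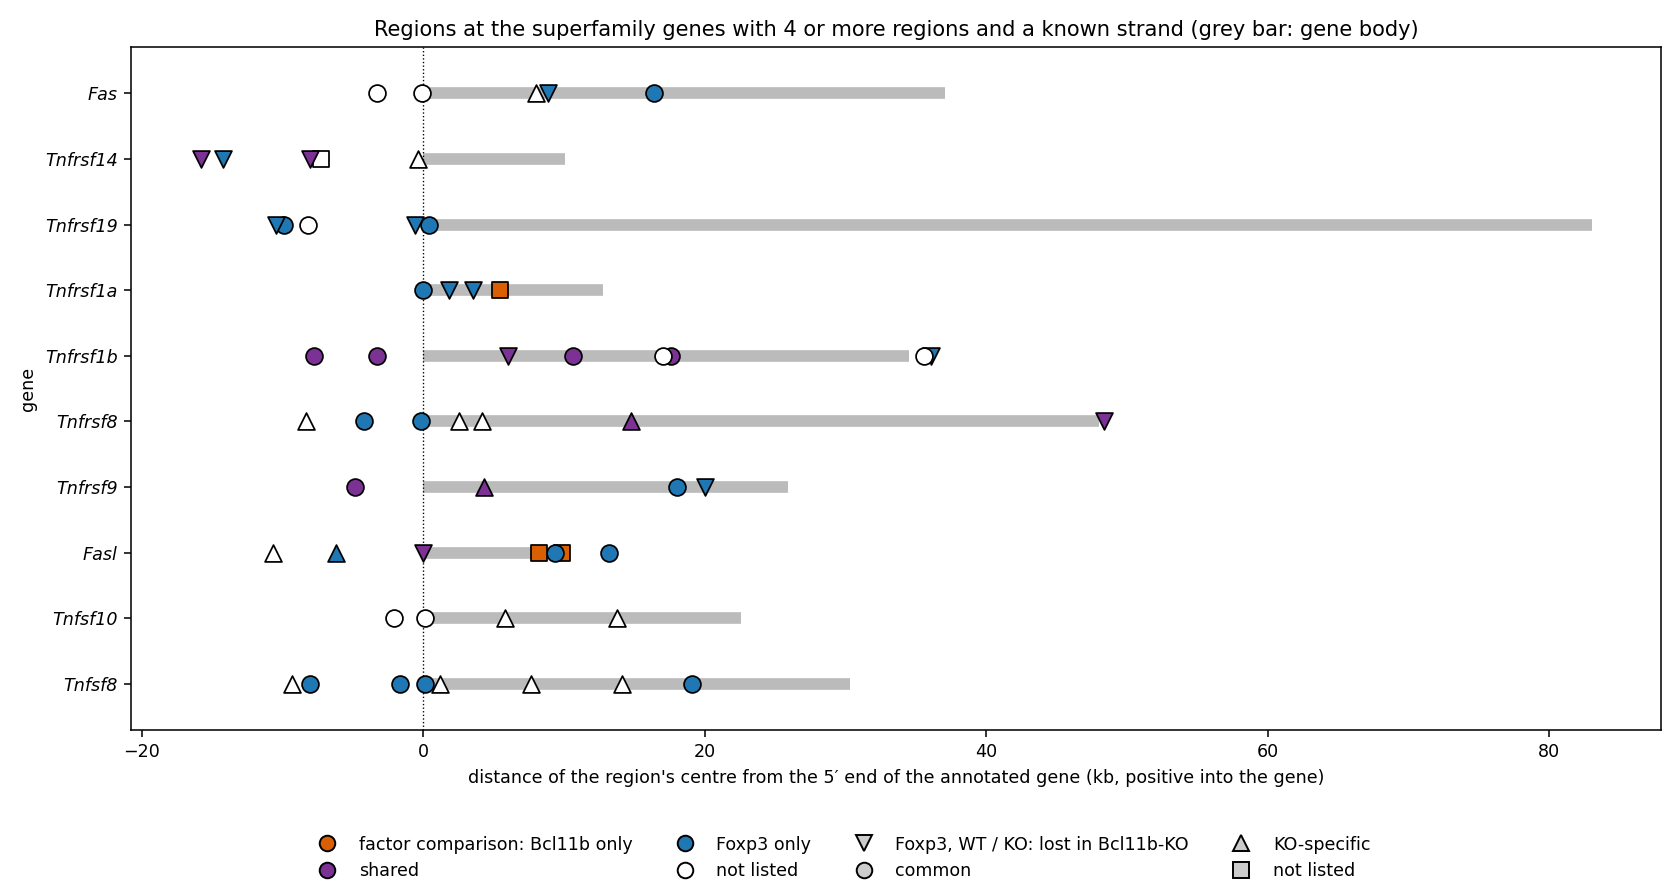
Position of the regions (x axis, kb from the 5′ end of the annotated gene) at the 10 members that had 4 or more regions and a known strand, 57 regions in all. Colour gives the class in the comparison of Bcl11b with Foxp3 and shape the class of Foxp3 in WT against Bcl11b-KO cells; 5 of the 8 regions at Tnfrsf1b were shared (purple) and none of the 8 at Tnfsf8 was.

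Death receptor genes showed different patterns. Tnfrsf1a, the gene of the main TNF receptor, had a Foxp3-only region at its start that was common, and Foxp3-only regions 1.80 and 3.54 kb inside the gene that were lost. Its region at 5.45 kb was Bcl11b-only, common with Tn and lost in KIKO. Fas had 5 regions and no Bcl11b site in any list. Of these, 3 were common for Foxp3, at 3.31 kb and 0.0605 kb upstream and 16.4 kb inside the gene, while the region at 8.85 kb was lost and that at 8.04 kb was KO-specific. Tnfrsf10b, the mouse TRAIL death receptor gene, had 3 regions inside the gene. The one at chr14:69774376-69774573 was Treg-specific, lost in KIKO and shared with Foxp3 in the factor comparison, but was not listed in the Foxp3 WT and KO comparison. The other 2 were lost for Foxp3. The one at chr14:69774950-69775225 was Foxp3-only and the one at chr14:69780400-69780757 was shared with Bcl11b.

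Tnfrsf19, the gene of TROY, had 5 regions, none shared. Those 0.407 kb inside the gene and 8.15 and 9.88 kb upstream were common for Foxp3, and those 0.583 and 10.4 kb upstream were Foxp3-only and lost. The region 9.88 kb upstream was listed for Bcl11b as common to Treg and Tn cells and as Foxp3-only in the factor comparison, another conflict. The remaining receptors had 1 or 2 regions and no Treg Bcl11b site. Tnfrsf12a, which encodes the receptor of TWEAK, had 1 common Foxp3 region at its start. Ltbr, the lymphotoxin beta receptor gene, Tnfrsf21, and the decoy TRAIL receptor genes Tnfrsf22 and Tnfrsf23 had 1 KO-specific region each. Tnfrsf26 had 1 common and 1 KO-specific region.

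Of the 102 member regions, 10 were listed in all 4 comparisons, beside 2340 of the 22081 regions of the series. At ligands there were 4, of which 2 were at Lta and 1 each at Tnfsf11 and Cd70. The rest were at the receptor genes Tnfrsf14, Tnfrsf1b, Tnfrsf8 and Tnfrsf9. Lta lies 1.16 kb from Tnf on chromosome 17 and encodes a secreted ligand that also pairs with lymphotoxin beta. Its regions at chr17:35204542-35205096, inside the gene, and at chr17:35210146-35210494, 4.74 kb upstream, were common in all 4 comparisons. The region of Tnfsf11, the RANK ligand gene, at chr14:78306912-78307206, 0.984 kb inside the gene, was the third member region common in all 4. In the whole series 729 of 22081 regions (3.30%) were common in all 4, beside 3 of 102 (2.94%) here. Tnfsf11 had a second region 70.0 kb past its 3′ end, which was Bcl11b-only, common with Tn and lost in KIKO.

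The neighbours of Lta differed from it. Tnf, the gene of the cytokine itself, had 1 region inside the gene, Foxp3-only and common. Ltb, which encodes lymphotoxin beta, had a Foxp3-only region of 477 bp over its promoter that was common, and a region of 252 bp inside the gene that was listed only as common to Treg and KIKO Bcl11b. The latter has the modal width of the KIKO set and was absent from the Tn and factor comparisons.

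Cd40lg, the gene of the CD40 ligand of helper T cells, had 7 regions, all of 220 bp and all Foxp3-only. Foxp3 was lost from 5 in Bcl11b-KO cells, at 24.7, 22.6, 15.7 and 1.34 kb outside the gene and 1 inside it. The region 28.5 kb away and the second region inside the gene were common. No list placed Bcl11b at Cd40lg. Across the members, 14 of the 20 lost Foxp3 regions were Foxp3-only (70.0%, 48.1 to 85.5) and 6 were shared with Bcl11b. Over all lost regions 73.6% were Foxp3-only, a share close to that of the members.

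Fasl, the gene of the Fas ligand, had 7 regions, of which 1 was lost, 2 were common, 2 were KO-specific and 2 were absent in the Foxp3 comparison. Its promoter region at chr1:161788339-161788670 was shared and lost in Bcl11b-KO cells. Past the 3′ end, regions at 2.09 and 0.459 kb were Bcl11b-only, Treg-specific and lost in KIKO, and were not listed for Foxp3 in either genotype. Foxp3-only common regions lay 5.38 and 1.53 kb past the 3′ end. The regions 6.18 and 10.7 kb upstream were KO-specific, and the first of these was also listed for WT Foxp3 in the factor comparison.

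Tnfsf8, the CD30 ligand gene, had 8 regions and no Bcl11b site. Those 19.1 and 0.129 kb inside the gene and 1.65 and 8.06 kb upstream were Foxp3-only and common. Those 14.1, 7.65 and 1.22 kb inside the gene and 9.32 kb upstream were found in the Bcl11b-KO set alone. Tnfsf10, which encodes TRAIL, had 2 common regions, 2.07 kb upstream and 0.121 kb inside, and 2 KO-specific regions, 5.82 and 13.8 kb into the gene. Tnfsf13b, the BAFF gene, had a single KO-specific region at its start.

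Tnfsf9, Cd70 and Tnfsf14 follow each other on chromosome 17. Cd70 encodes the ligand of CD27. Its KO-specific regions lay inside the gene and at chr17:57135856-57136131 outside it. A Foxp3-only common region lay 14.0 kb outside the gene. The other common region, 7.11 kb outside it at chr17:57138730-57139052, was also Treg-specific and lost in KIKO for Bcl11b. That region was listed as Bcl11b-only in the factor comparison, against its listing for WT Foxp3 in the other. Tnfsf9, the CD137 ligand gene, had Foxp3-only common regions 1.17 and 3.77 kb outside the gene and a KO-specific region 15.6 kb outside it. Tnfsf14, the LIGHT gene, had common regions 0.128 kb upstream and 0.570 kb past the 3′ end, which were listed in the WT and Bcl11b-KO comparison alone. Tnfsf4, the OX40 ligand gene, had 3 regions outside the gene, at 0.168, 18.4 and 19.5 kb, all Foxp3-only and common. Tnfsf18, the GITR ligand gene, had 1 region, 4.31 kb upstream, that was Bcl11b-only, Treg-specific and lost in KIKO. Tnfsf13, the APRIL gene, had 1 common Foxp3 region, which also lies inside the readthrough gene Tnfsfm13.

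**Figure D4:**
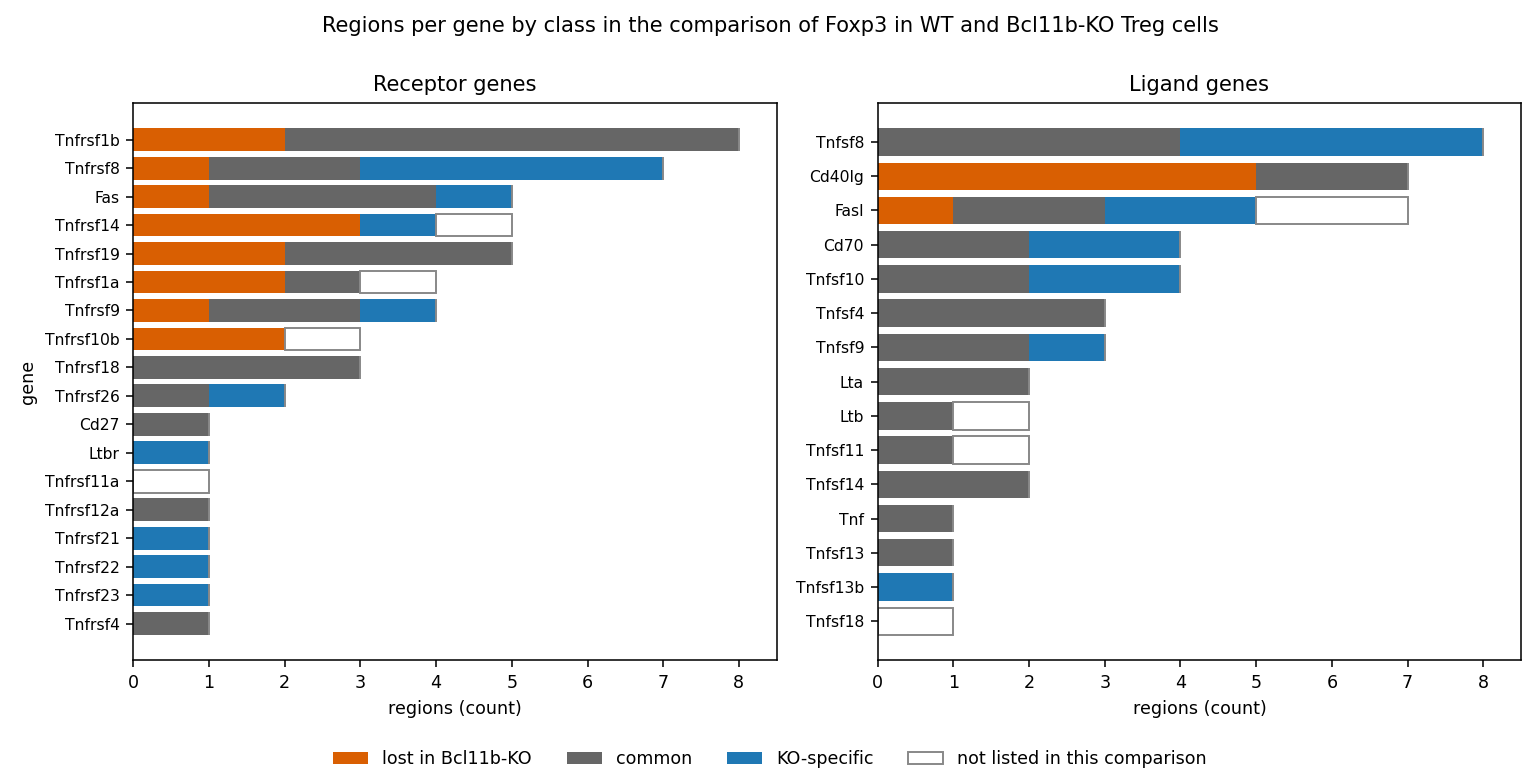
Number of regions (x axis) per receptor gene (left) and ligand gene (right), split by class of Foxp3 in WT against Bcl11b-KO Treg cells; white bars are regions outside this comparison. Tnfrsf8 and Tnfsf8 each had 4 KO-specific regions, and Cd40lg had 5 lost regions.

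The 9 members without a region were Cd40, Tnfrsf11b, Tnfrsf13b, Tnfrsf13c, Tnfrsf17, Tnfrsf25, Tnfsf12, Tnfsf15 and Tnfsfm13. Cd40, Tnfrsf13b, Tnfrsf13c and Tnfrsf17 encode receptors best known on B cells, for CD40 ligand, BAFF and APRIL.

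Region width varied with these classes, and its part in the KO-specific share was not tested. Each region set has 1 width that recurs most often. It is 276 bp in the Bcl11b-KO Foxp3 set and 220 bp in the WT Foxp3 set. For Bcl11b it is 252 bp in KIKO, 226 bp in Tn and 198 bp in WT Treg cells. Of the 24 KO-specific member regions, 22 were exactly 276 bp wide (91.7%), as were 85.9% of all KO-specific regions. The 2 wider ones are the regions of Tnfrsf8 and Tnfrsf9 for which the lists conflict. Common regions can have the width of 1 set too. Of the 49 common Foxp3 regions, 13 were 220 bp and 18 were 276 bp wide. The latter are 36.7%, beside 30.1% of all common Foxp3 regions. Of these 18, 9 were not listed in the factor comparison, at Fas, Tnfrsf19, Tnfrsf1b, Tnfsf10 and Tnfsf14. These 9 of 49 stand beside 1933 of all 10550 common Foxp3 regions, so such gaps occur across the whole series. How the authors defined a common region was not stated in the labels.

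The Bcl11b sites at members also depended on the comparison that listed them. Treg Bcl11b was listed at 28 member regions in the factor comparison, at 20 in the Tn comparison and at 17 in the KIKO comparison, and 16 were in all 3. The factor comparison alone placed it at 10 regions, at Cd27, Fasl, Tnfrsf10b, Tnfrsf18, Tnfrsf1b and Tnfrsf4. All 10 were among the 22 shared member regions. Over all regions, 1758 of the 4738 shared regions were likewise absent from the Tn and KIKO lists, so this occurs across the whole series. Among shared regions that the Tn comparison lists for Treg cells, 5 of 12 were Treg-specific (41.7%, 19.3 to 68.0), beside 11.9% over all shared regions. Of the Bcl11b-only regions, 4 of 6 were (66.7%, 30 to 90.3), beside 66.8%. In KIKO cells 6 of 10 shared regions (60%, 31.3 to 83.2) and 6 of 6 Bcl11b-only regions (100%, 61.0 to 100) were lost, beside 52.5% and 80.5%.

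Member regions lay away from gene ends in most cases. Of the 102, 24 lay at most 1 kb from either end of a gene (23.5%, 16.4 to 32.6), beside 37.9% of all regions, and 43 (42.2%, 33 to 51.9) were inside the gene, beside 60.4%. Among shared regions 5 of 22 lay within 1 kb of a gene end (22.7%, 10.1 to 43.4), with 54.2% over all shared regions. Among KO-specific regions 4 of 24 did (16.7%, 6.68 to 35.9), with 14.2% overall. Exons and introns were not analysed here.

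Genes that act downstream of these receptors were counted in the same way. A list of 27 adaptors, kinases, caspase regulators, ubiquitin enzymes and ligand-shedding proteases held 74 regions. Each of the 27 had at least 1, beside 50.3% of all protein-coding genes. Cflar, which encodes the caspase-8 inhibitor c-FLIP, had 8 regions, all for Foxp3, 6 common and 2 lost. Tnfaip3, the gene of the NF-kB inhibitor A20, had 5 regions, 3 of them common and 1 lost for Foxp3. Bid, a mediator of death receptor signals, and Map3k14, the NF-kB-inducing kinase gene, had 4 each, as did Otulin, Traf1 and Traf3. In the Foxp3 comparison 49 of 64 regions at these genes were common (76.6%, 64.9 to 85.3), 13 were lost (20.3%, 12.3 to 31.7) and 2 were KO-specific (3.12%, 0.861 to 10.7). Over all regions these shares were 59.7%, 27.2% and 13.1%. Shared regions made up 20 of 57 (35.1%, 24.0 to 48.1), beside 28.3% of all regions. Treg-specific Bcl11b regions made up 5 of 21 (23.8%, 10.6 to 45.1), beside 28.0%. The differences from the receptor and ligand genes were not tested.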

How the data were processed

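ChIP-seq of Bcl11b and Foxp3 in sorted mouse T cells was used as 12 region lists that the authors deposited, which hold positions in 3 columns. No column holds a signal, score or count. The submitters' processing notes name mm10, HOMER 4.10.1, HISAT2 2.1.0, deepTools, SAMtools 1.3, Trim Galore 0.4.2, FastQC and cutadapt 1.12. What each did, the peak threshold and any pooling of replicates: not given in the sources used here. Each list stands for a group, so replicates were not compared.

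Repeated rows (127) were dropped, and 25 regions in 2 classes of 1 comparison were left out of it, none of them at a member. Each region was given to the coding gene closest to its midpoint (RefSeq, GRCm38.p6, limit 100 kb; ties to the shorter gene). Assignment was tested on simulated data and matched a plain search in 2400 of 2400 cases. Regions of different lists were matched by identical positions.

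Members, gene lists, motifs and rules were chosen with earlier results of these data known. Members with 3 or more regions, and 18 receptors and ligands of T cells whatever their count, are described region by region. The others are given by counts, and the signalling genes with the most regions are named. Alternatives are in the closing section. Python 3.11.15, pandas 2.3.3, numpy 2.4.6, scipy 1.17.1 and matplotlib 3.10.9 were used.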

Additional observations from a re-analysis of the deposited data

How the results depend on the processing

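Of 42 values under alternatives, 38 stayed within the main interval, or within 1.5 times for counts, but some of these could not move. The alternatives were a limit of 20 kb, gene bodies with 10 kb on each side, the nearest of all annotated genes, distance from a region's edge, regions over 1 kb from a gene end, regions in 2 classes kept, centres matched within 100 bp, and regions wider than 276 bp. The last selects by width, since the lists hold no score. Width is not peak strength, so it does not stand for a stricter threshold. This setting moved 4 values. It left 26 regions at 17 members, the shared percent of the factor comparison became 53.8% in place of 31.9%, and the common percent of the Foxp3 comparison 69.2% in place of 52.7%. The Bcl11b-only and KO-specific percents were not among the 42 values, and both left their main interval. The Bcl11b-only percent was 3.85% in place of 8.70% (4.05 to 17.7). The KO-specific percent was 7.69% in place of 25.8% (18.0 to 35.5). This setting keeps fewer regions by construction and shifts the classes too. Over all regions it gave 46.0% shared and 77.1% common, in place of 28.3% and 59.7%. Of all KO-specific regions, 85.9% are exactly 276 bp wide, so most are removed in advance. Counting the nearest of all annotated genes gave 86 regions at 30 members. Keeping regions in 2 classes could not move a value, since no member region was in 2 classes. Distance from a region's edge gave the same values as the main setting. For Bcl11b-only regions lost in KIKO, the width setting left 1 region. No paired analysis was possible because the lists hold no value per replicate, and for the same reason no replicate could be left out.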

Other observations

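Several members are neighbours, so 1 region can be near 2 of them. The region inside Tnf was 2.58 kb from Lta and 4.28 kb from Ltb, and the Ltb promoter region was 4.94 kb from Tnf. Tnfrsf26, Tnfrsf22 and Tnfrsf23, neighbours on chromosome 7, held 4 regions, of which 3 were KO-specific for Foxp3 and 1 common, with no Bcl11b region. Over the 36 promoter windows of members, the upstream bases held the AP-1 motif in 6 (16.7%), the NF-kB, ETS and RUNX motifs in 3 each (8.33%) and the forkhead motif in 1 (2.78%). Over all promoters the RUNX motif was found in 14.0% and the AP-1 motif in 6.75%.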
